A study of Homo sapiens with 10 samples.

Results

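The ERBB receptors and their EGF-family ligands are 10 of the 58735 genes with counts in this experiment. They comprise the 4 receptors EGFR, ERBB2, ERBB3 and ERBB4 and the 6 ligands AREG, EREG, TGFA, HBEGF, BTC and EPGN. They were picked by gene name, with earlier results of these data known. RNA was sequenced from A253, a human line of salivary gland squamous cell carcinoma, to ask which genes differ once DUSP1, a phosphatase of the MAP kinases, has lost an allele. The control cells carried Cas9 and a guide RNA against dTomato, a fluorescent protein gene that human cells lack, in place of the guides against DUSP1. The DUSP1-/+ cells carried Cas9 and guides on either side of exon 2 of DUSP1, and were heterozygous for loss of that exon. They were grown up as the clones Cl1 and Cl10, so that each stands for 1 clone. The paper reports no DUSP1 protein on Western blots of either clone. Each of the 3 groups had 2 libraries, and because the labels do not tell whether these came from separate cultures, p-values measure only the spread between these libraries, which may be technical.

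ERBB receptors are tyrosine kinases of the cell surface that pair up when a ligand binds. ERBB2 has no known ligand of its own, and ERBB3 is a poor kinase that signals mainly through its partners. The ligands are made as membrane-anchored precursors that ADAM metalloproteases cut free. AREG, TGFA and EPGN bind EGFR, whereas HBEGF, BTC and EREG also bind ERBB4. Active receptors feed the RAS-ERK and PI3K-AKT pathways, and squamous epithelia and their carcinomas commonly make both EGFR and several of its ligands.

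Library totals ran from 47016495 to 70986593 counts, and libraries of the same group differed by more than counting noise. Levels are given as CPM, the counts scaled by TMM-adjusted library totals. DUSP1 had 12.9 and 11 CPM in the control, 5.28 and 6.15 CPM in Cl1 and 8.6 and 7.21 CPM in Cl10, lower in each clone library than in either control library. Counts per gene do not show whether exon 2 was transcribed. All 7 epithelial and squamous markers were detected, with KRT5, a basal keratin, the highest. Their summed level was 11400 to 12000 CPM in the control, 13200 to 13300 CPM in Cl1 and 10900 to 11400 CPM in Cl10. This sum hides opposite differences of single markers. KRT8 had 1520 and 1730 CPM in the control but 636.1 and 649.5 CPM in Cl10, and KRT18 376.6 and 479.0 but 238.1 and 235.4 CPM. CDH1 had 371.2 and 322.4 CPM in the control, 640.8 and 598.7 CPM in Cl1 and 432.2 and 450.4 CPM in Cl10. Of 10 markers of salivary acinar cells, 6 had at most 3 counts in every library, among them AMY1B and AMY1C at 0, and their sum was 2.41 to 2.6 CPM in the control, 3.26 to 3.37 CPM in Cl1 and 1.78 to 1.91 CPM in Cl10. Of 11 markers of leukocytes, endothelium and fibroblasts, 4 had at most 3 counts in every library, LUM was at 0, and the sum, led by COL1A1, was 53.9 to 60.4 CPM in the control, 65.1 to 66.6 CPM in Cl1 and 43.2 to 43.7 CPM in Cl10. The part of these marker differences in the results below was not tested, and in such bulk libraries fewer cells that make an RNA and less of it in each cell cannot be told apart.

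Per kilobase of annotated exon, EGFR was the most abundant of the 10 in all 3 groups, with 30.6 CPM per kb in the control, 45.9 in Cl1 and 36.8 in Cl10. AREG came next in the control at 24.4 CPM per kb, and its libraries overlapped those of EGFR. Then followed TGFA (13.4), EREG (8.94), ERBB2 (8.53) and ERBB3 (5.62), of which only EREG and ERBB2 overlapped between neighbours. HBEGF (1.88) and BTC (0.727) were lower, and EPGN (0.0881) and ERBB4 (0.00637) were near the limit of detection. In Cl10 AREG had moved from the second to the fourth place, at 9.3 CPM per kb behind TGFA (12.5) and EREG (11), and no neighbouring pair overlapped. In Cl1 AREG kept the second place at 11.1 CPM per kb, but ERBB2 (9.98) and TGFA (9.78) overlapped each other just beneath it, as did ERBB3 (5.99) and EREG (5.75). Divided by the length of the canonical transcript instead, EGFR stayed first in all 3 groups, but the places below it changed. AREG then took the second place in the control, the third in Cl1 and the fifth in Cl10, and ERBB2 took the third place in the control and the second in both clones, so that the places of AREG in the clones depended on the length used.

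Differences were tested in separate edgeR quasi-likelihood fits of each pair of groups, with Benjamini-Hochberg adjustment over all genes tested, and each log2 fold change is given with its standard error (SE). A gene passed at an adjusted p under 0.05, and was called if its log2 fold change also lay above 1 or below -1. Both clones were compared with the same control libraries, so a chance deviation in a control library enters both comparisons. In Cl1 5 of the 10 genes passed, EGFR higher and AREG, EREG, TGFA and HBEGF lower, where 25.1% of all 20153 genes tested passed, 12.4% higher and 12.8% lower. AREG and HBEGF were called, as were 7.54% of all genes. In Cl10 9 genes could be tested and 5 passed, with EREG, BTC and EPGN higher and AREG and ERBB3 lower, beside 42.5% of all 19875 genes tested, 20.6% higher and 21.8% lower. AREG and EPGN were called there, against 13.4% of all genes. The median log2 fold change of the 6 ligands was -0.54 in Cl1 and 0.10 in Cl10, and that of EGFR, ERBB2 and ERBB3, the 3 receptors tested in both clones, was 0.23 and -0.04, with -0.01 over all genes tested in either clone.

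AREG, amphiregulin, had 41.2 and 38.9 CPM in the control, 18.8 and 17.8 CPM in Cl1 and 15.1 and 15.4 CPM in Cl10. The groups did not overlap, with the control libraries high, those of Cl1 low and those of Cl10 lowest. Against the control its level changed on the log2 scale by -1.13 in Cl1 (SE 0.11, edgeR adjusted p = 1.87e-05) and -1.39 in Cl10 (SE 0.0831, edgeR adjusted p = 7.68e-05). For the 50 tested genes nearest to it on chromosome 4, the median was -0.01 in Cl1 and 0.15 in Cl10. AREG passed in both clones under every alternative run, with values from -1.20 to -1.08 in Cl1 and from -1.54 to -1.35 in Cl10.

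AREG (ENSG00000109321, hg38 chr4:74445136-74455005, plus strand, 6 exons) shares a stretch of chromosome 4 with EPGN (ENSG00000182585, chr4:74308470-74316789, plus strand, 5 exons), EREG (ENSG00000124882, chr4:74365145-74388749, plus strand, 5 exons) and BTC (ENSG00000174808, chr4:74744759-74794523, minus strand, 6 exons). The bases around their starts are shown because these neighbours did not move alike. Each window holds 250 bases before and 50 after the RefSeq start (GRCh38.p14), read 5′ to 3′ on the strand of the gene, and was searched on both strands for TGAGTCA as the AP-1 letters, TGACGTCA as the cyclic AMP response letters, CCGGAAGT as the ETS letters and TATAAA as the core promoter letters, with matches in capitals:
AREG chr4:74444886-74445185: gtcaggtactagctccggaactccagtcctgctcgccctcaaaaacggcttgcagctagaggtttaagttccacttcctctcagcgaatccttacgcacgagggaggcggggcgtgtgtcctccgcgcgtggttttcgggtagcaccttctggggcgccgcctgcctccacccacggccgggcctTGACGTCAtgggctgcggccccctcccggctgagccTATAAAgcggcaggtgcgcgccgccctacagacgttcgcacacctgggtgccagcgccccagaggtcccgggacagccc
EREG chr4:74364895-74365194: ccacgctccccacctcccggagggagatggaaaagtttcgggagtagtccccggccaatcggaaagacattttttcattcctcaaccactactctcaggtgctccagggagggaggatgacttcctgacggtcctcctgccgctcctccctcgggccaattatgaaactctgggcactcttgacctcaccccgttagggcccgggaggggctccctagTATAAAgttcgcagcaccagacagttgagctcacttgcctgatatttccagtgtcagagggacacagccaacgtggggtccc
EPGN chr4:74308220-74308519: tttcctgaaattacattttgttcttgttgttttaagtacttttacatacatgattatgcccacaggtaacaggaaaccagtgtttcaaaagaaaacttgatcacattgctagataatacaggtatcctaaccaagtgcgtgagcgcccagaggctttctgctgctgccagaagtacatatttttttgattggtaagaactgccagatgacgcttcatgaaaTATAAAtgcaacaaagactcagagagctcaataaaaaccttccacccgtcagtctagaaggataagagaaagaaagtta
BTC chr4:74794474-74794773: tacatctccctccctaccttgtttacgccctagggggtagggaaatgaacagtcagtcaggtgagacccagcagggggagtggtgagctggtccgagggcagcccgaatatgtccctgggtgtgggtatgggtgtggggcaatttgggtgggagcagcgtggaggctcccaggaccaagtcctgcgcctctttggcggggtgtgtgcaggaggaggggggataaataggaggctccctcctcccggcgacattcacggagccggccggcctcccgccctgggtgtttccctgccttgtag

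The AREG window held TGACGTCA from position -65 and TATAAA from position -29, counted from the start. TATAAA also stood at -32 in EREG and at -29 in EPGN, and no searched letters were in the BTC window. Over 35116 promoter windows of the same length, 1.85% held TGACGTCA and 11.5% held TATAAA. Of the 9 genes with a RefSeq window, ERBB2 alone held the ETS letters, at -27 and -14, which 4.14% of all windows held. The RefSeq start used for ERBB2 lay 180 bases from the start of the gene in GENCODE, and other starts of the gene were not searched. TGAGTCA was in none of the 9 windows, against 4.95% of all windows. These matches describe letters and not bound sites. The GC content of the windows was 66.3% for AREG, 57.7% for EREG and 63% for BTC, but 37.7% for EPGN.

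EREG, epiregulin, starts 80.0 kb upstream of AREG. It had 53.7 and 48.5 CPM in the control, 30.4 and 35.3 CPM in Cl1 and 62.6 and 62.9 CPM in Cl10. Its Cl1 libraries lay below the control libraries and its Cl10 libraries above them. Relative to the control the log2 value changed by -0.64 in Cl1 (SE 0.117, edgeR adjusted p = 0.00195) and 0.30 in Cl10 (SE 0.0854, edgeR adjusted p = 0.0274). The rise in Cl10 did not pass once the local median of 0.10 was taken off (0.20, t-test adjusted p = 0.108). It also did not pass without either Cl10 library (0.31 and 0.30), and the fall in Cl1 did not pass without Cl1 replicate 1 (-0.53).

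EPGN, epigen, starts 136.7 kb upstream of AREG and was scarce, with 23 and 13 counts in the control libraries, 49 and 24 in Cl1 and 39 and 40 in Cl10. As CPM these were 0.338 and 0.243 in the control, 0.727 and 0.488 in Cl1 and 0.666 and 0.832 in Cl10, and every clone library was above both control libraries. The log2 fold change of 1.34 in Cl10 passed edgeR's quasi-likelihood test (SE 0.342, edgeR adjusted p = 0.0184), but not DESeq2 (1.37, adjusted p = 0.0671), nor edgeR's test without Cl10 replicate 2 (1.18). In Cl1 the value of 1.06 (SE 0.4, 95% interval 0.20 to 1.94) did not pass (edgeR adjusted p = 0.0693).

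BTC, betacellulin, lies on the other side, with its start 349.4 kb downstream of that of AREG. It had 2.04 and 1.81 CPM in the control, 1.99 and 2.01 CPM in Cl1 and 3.84 and 3.43 CPM in Cl10. The Cl1 libraries lay between the control libraries, and the Cl10 libraries lay above all others. BTC rose by 0.92 on the log2 scale in Cl10 (SE 0.166, edgeR adjusted p = 0.00474) and had a value of 0.05 in Cl1 (95% interval -0.39 to 0.50, edgeR adjusted p = 0.88).

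**Figure D1:**
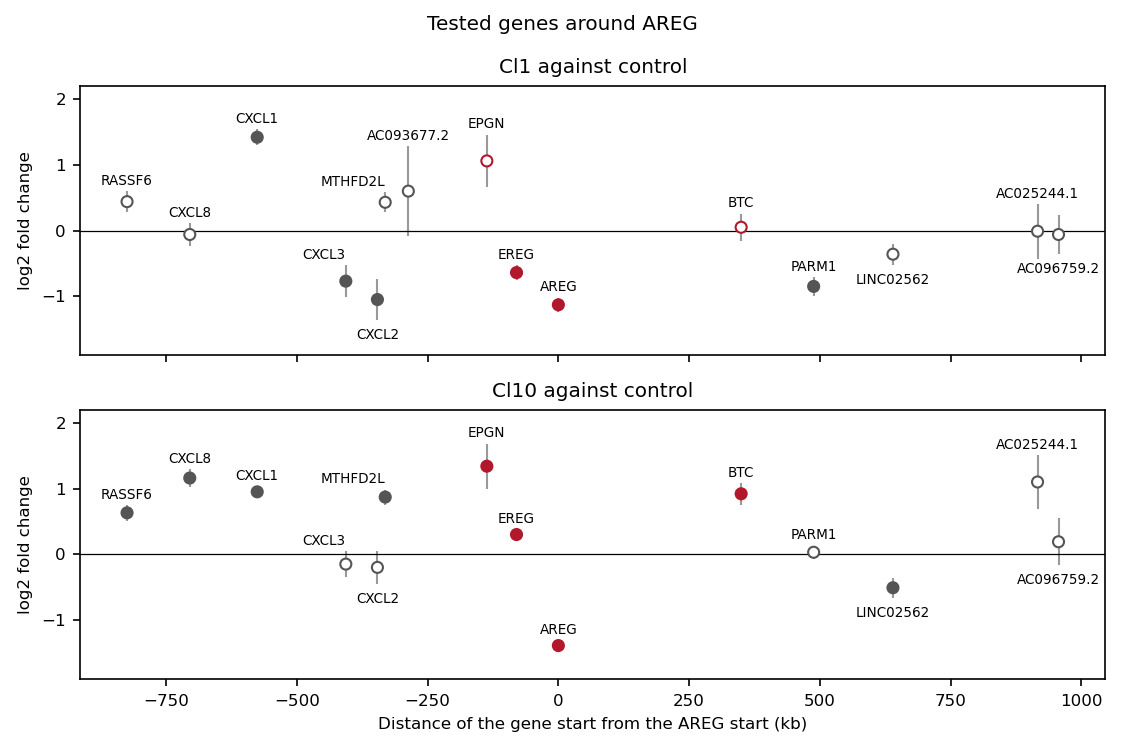
Log2 fold change (y axis, bars are 1 standard error) of the tested genes within 1 Mb of the AREG start, by distance in kb from it (x axis), in Cl1 and Cl10 against the control. Red marks the ligands and filled points passed; AREG is the lowest point in both panels (-1.13 and -1.39), while EPGN, EREG and BTC take values from -0.64 to 1.34.

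Other tested genes within 1 Mb of AREG were mainly chemokine genes upstream and other genes downstream. CXCL1, a neutrophil chemokine, rose in Cl1 (1.42) and Cl10 (0.95). CXCL8 passed in Cl10 (1.16) but not in Cl1 (-0.06, edgeR adjusted p = 0.846). PARM1, downstream of BTC, fell in Cl1 (-0.85) and did not pass in Cl10 (0.03, edgeR adjusted p = 0.854). CXCL2 and CXCL3 passed as lower in Cl1 (-1.05 and -0.77), and RASSF6 (0.63), MTHFD2L (0.87) and LINC02562 (-0.51) passed in Cl10. In Cl1 the passed genes upstream of AREG thus differed in both directions, and downstream only PARM1 passed, as lower. In Cl10 all passed genes upstream were higher, while downstream BTC was higher and LINC02562 lower.

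HBEGF, heparin-binding EGF-like growth factor (ENSG00000113070, chr5:140332843-140346603, minus strand, 6 exons), had 5.29 and 5.92 CPM in the control, 2.63 and 2.48 CPM in Cl1 and 5.02 and 4.76 CPM in Cl10. Only the Cl1 libraries stood well apart from the rest. In Cl1 the log2 fold change was -1.13 (SE 0.168, edgeR adjusted p = 0.000484), while the local median was 0.19. In Cl10 it was -0.19 (95% interval -0.49 to 0.12, edgeR adjusted p = 0.275), with both libraries just below the control libraries. With the local median of 0.26 taken off it was -0.45 and passed (t-test adjusted p = 0.03).

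TGFA, transforming growth factor alpha (ENSG00000163235, chr2:70447284-70554193, minus strand, 6 exons), had 70.2 and 61.3 CPM in the control, 51.3 and 44.9 CPM in Cl1 and 60.3 and 62.6 CPM in Cl10. The Cl1 libraries lay below the control libraries and those of Cl10 overlapped them. TGFA fell in Cl1, with a log2 fold change of -0.45 (SE 0.119, edgeR adjusted p = 0.0158), and stood at -0.09 in Cl10 (95% interval -0.31 to 0.13, edgeR adjusted p = 0.453). Without Cl1 replicate 1 the Cl1 value was -0.55, and without Cl1 replicate 2 it was -0.35, and neither passed.

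Summed over the 6 ligands per kilobase of exon, the level was 51.4 and 47.4 CPM per kb in the control, 29.1 and 27.9 in Cl1 and 35.7 and 36.3 in Cl10. Both clones thus lay below the control, and Cl1 below Cl10, with no overlap and no test. AREG made up 48.8% and 50% of this sum in the control, 39.4% and 38.8% in Cl1 and 25.8% and 25.9% in Cl10. EREG made up 18.3% and 17.9% in the control and 18.3% and 22.2% in Cl1, but 30.6% and 30.3% in Cl10. TGFA held 26.3% to 27.8% in the control and 32.8% to 35.9% in the clones. The ratio of EREG to AREG per kb was 0.375 and 0.358 in the control, 0.465 and 0.571 in Cl1 and 1.19 and 1.17 in Cl10, so that EREG exceeded AREG in the Cl10 libraries only. HBEGF, BTC and EPGN together were minor, each with at most 4.7% of the sum in any library.

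**Figure D2:**
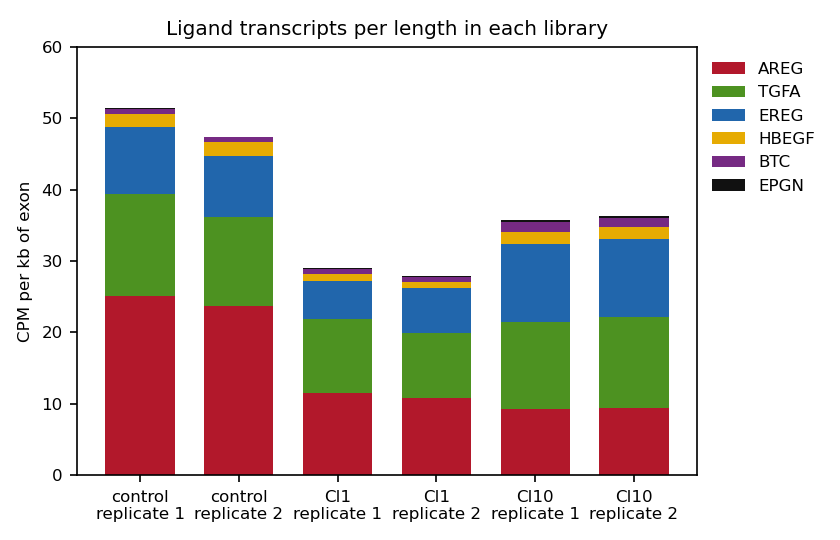
Summed level of the 6 ligands in each library, as CPM per kb of exon (y axis), with each ligand a coloured stretch of the bar. The control bars reach 51.4 and 47.4, the Cl1 bars 29.1 and 27.9 and the Cl10 bars 35.7 and 36.3, and the AREG stretch narrows from 48.8% and 50% of the bar to 25.8% and 25.9% in Cl10.

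EGFR, the receptor shared by all 6 ligands (ENSG00000146648, chr7:55019017-55211628, plus strand, 28 exons), had 576.4 and 399.6 CPM in the control, 715.0 and 749.9 CPM in Cl1 and 568.8 and 602.9 CPM in Cl10. Control replicate 1 had 1.44 times the level of replicate 2, the widest gap of any group for this gene, and the Cl1 libraries exceeded both while those of Cl10 overlapped them. EGFR rose in Cl1, with a log2 fold change of 0.59 (SE 0.166, edgeR adjusted p = 0.0214), and stood at 0.27 in Cl10 (95% interval -0.12 to 0.66, edgeR adjusted p = 0.227). Without control replicate 1 these were 0.87 and 0.55, and without control replicate 2 they were 0.35 and 0.02. In Cl1 EGFR did not pass without Cl1 replicate 1 (0.62, edgeR adjusted p = 0.0752) or without Cl1 replicate 2 (0.56, edgeR adjusted p = 0.104). The local median on chromosome 7 was -0.07 in Cl1 and -0.45 in Cl10. EGFR minus this median was 0.65 and 0.72, the latter with a t-test adjusted p of 0.0131.

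ERBB3, a receptor for neuregulins (ENSG00000065361, chr12:56076799-56103505, plus strand, 28 exons), had 70.3 and 61.4 CPM in the control, 69.5 and 70.8 CPM in Cl1 and 47.3 and 46.1 CPM in Cl10. The Cl10 libraries were the low ones and those of Cl1 overlapped the control. Its log2 fold change of -0.49 in Cl10 passed (SE 0.0926, edgeR adjusted p = 0.00562), and that of 0.09 in Cl1 did not (95% interval -0.15 to 0.34, edgeR adjusted p = 0.587). In Cl10 the local median on chromosome 12 was also -0.49, and with it taken off ERBB3 was at 0.00 (t-test adjusted p = 0.987). ERBB3 did not pass there without Cl10 replicate 1 (-0.50) or Cl10 replicate 2 (-0.47).

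ERBB2 (ENSG00000141736, chr17:39687914-39730426, plus strand, 27 exons) had 95.2 and 80.9 CPM in the control, 104.3 and 101.6 CPM in Cl1 and 86.6 and 84.7 CPM in Cl10. The Cl1 libraries lay just above the control libraries, and the Cl10 libraries between them. Neither the log2 fold change of 0.23 in Cl1 (95% interval -0.03 to 0.48, adjusted p = 0.182) nor that of -0.04 in Cl10 (95% interval -0.27 to 0.20, adjusted p = 0.799) passed edgeR's quasi-likelihood test.

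ERBB4 (ENSG00000178568, chr2:211375717-212538841, minus strand, 28 exons) was barely detected, with 10 and 1 counts in the control, 16 and 11 in Cl1 and 10 and 12 in Cl10. It entered the Cl1 comparison only through the counts of the Cl1 libraries, with a log2 fold change of 1.36 (95% interval -0.10 to 2.87, edgeR adjusted p = 0.161), and was filtered out of the Cl10 comparison. The value in Cl1 rested on the control libraries, being 0.65 without control replicate 2 (edgeR adjusted p = 0.602) and 3.48 without control replicate 1, which leaves 1 count in the control and passed (edgeR adjusted p = 0.0258). With counts this low, no direction can be given for ERBB4.

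**Figure D3:**
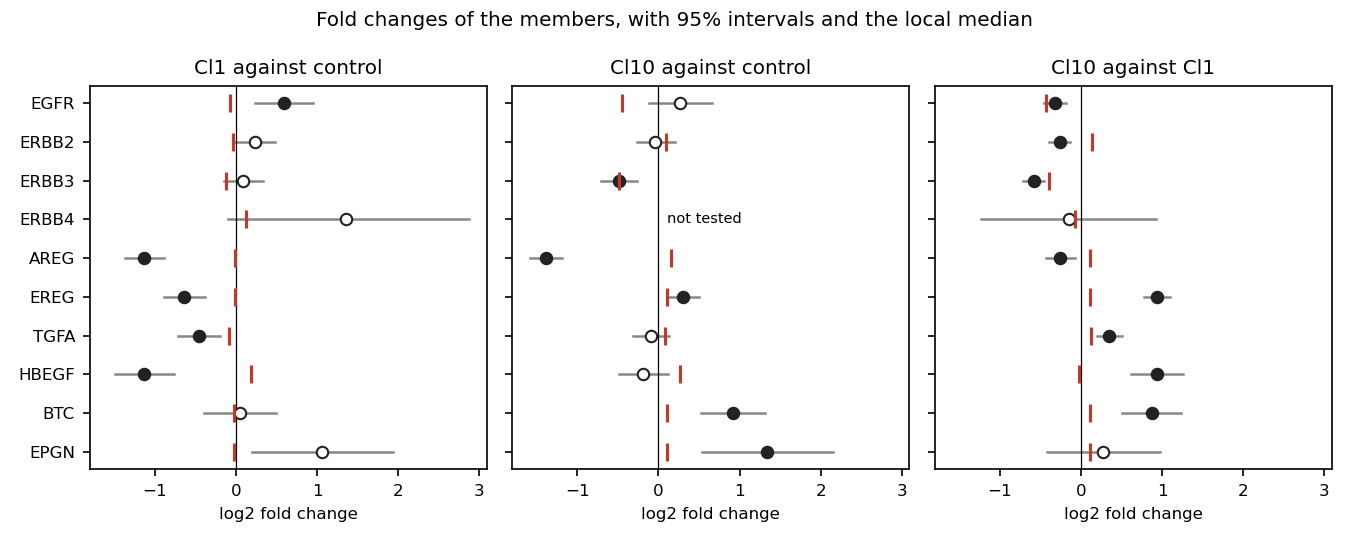
Log2 fold change (x axis) of the 10 genes in the 3 comparisons, with 95% intervals as grey lines, filled points for genes that passed edgeR's quasi-likelihood test and red ticks for the median of the 50 nearest tested genes. AREG is at -1.13 and -1.39 against the control, with red ticks near 0 (-0.01 and 0.15), whereas ERBB3 in Cl10 lies on its tick at -0.49.

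The clones were also compared with each other, without the control libraries. Between them 8 of the 10 genes passed, 4 higher and 4 lower in Cl10, where 49.0% of all 19818 genes tested passed, 24.9% higher and 24.1% lower. EREG, HBEGF, BTC and TGFA were higher in Cl10 than in Cl1, with log2 fold changes of 0.94 (SE 0.0728, edgeR adjusted p = 5.94e-07), 0.94 (SE 0.147, edgeR adjusted p = 0.00019), 0.87 (SE 0.167, edgeR adjusted p = 0.000906) and 0.35 (SE 0.0698, edgeR adjusted p = 0.00107) in that order. AREG was the only ligand that was lower in Cl10, at -0.26 (SE 0.0812, edgeR adjusted p = 0.0192), but did not pass with DESeq2 (-0.25, adjusted p = 0.0908) or without either Cl10 library (-0.24 and -0.27). EPGN, at 0.27, did not pass (95% interval -0.42 to 0.97, edgeR adjusted p = 0.511). Of the receptors, ERBB3 (-0.58, edgeR adjusted p = 4.35e-06), EGFR (-0.32, edgeR adjusted p = 0.00131) and ERBB2 (-0.26, edgeR adjusted p = 0.00204) were lower in Cl10. The genes nearest to EGFR had a median of -0.43 between the clones and those nearest to ERBB3 a median of -0.39, and with these taken off EGFR was at 0.12 and ERBB3 at -0.19, while the median near ERBB2 was 0.14. EGFR did not pass without Cl10 replicate 1 (-0.27), and ERBB2 did not without Cl10 replicate 2 (-0.24).

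The other genes of the pathway were taken from 6 lists of 87 genes. Beside the counts of each list below, 25.1% of all genes tested passed in Cl1, 12.4% higher and 12.8% lower. In Cl10 42.5% passed, 20.6% higher and 21.8% lower. The list of EGF and the neuregulins had 4 of 5 genes tested, and a neuregulin binds ERBB3, ERBB4 or both. NRG1 was the abundant neuregulin, with 217.3 and 188.7 CPM in the control, 108.4 and 108.3 CPM in Cl1 and 252.5 and 267.3 CPM in Cl10. It fell in Cl1 (-0.90, edgeR adjusted p = 0.000212) and rose in Cl10 (0.36, edgeR adjusted p = 0.0237), and differed by 1.27 between the clones (edgeR adjusted p = 1.53e-08). The rise in Cl10 did not pass without either Cl10 library (0.41 and 0.32). EGF itself did not pass in Cl1 (-0.15, edgeR adjusted p = 0.778) or Cl10 (0.01, edgeR adjusted p = 0.983).

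Of 11 genes for cutting and trafficking of the ligand precursors, 4 rose in Cl1 (median 0.21), and 3 rose and 2 fell in Cl10 (median 0.02). FRMD8, which stabilizes the iRhom partners of ADAM17, had 77.5 and 69.3 CPM in the control, 139.9 and 135.4 CPM in Cl1 and 160.6 and 162.1 CPM in Cl10, and rose in both (0.91 and 1.14, with local medians of 0.24 and 0.40). ADAM17, the main protease of AREG, TGFA and HBEGF, had -0.03 in Cl1 (edgeR adjusted p = 0.896) and -0.28 in Cl10 (edgeR adjusted p = 0.12), and did not pass. ADAM10, the main protease of BTC, rose by 0.35 and 0.41, but did not pass without either Cl1 library (0.37 and 0.34), without either Cl10 library (0.46 and 0.37) or, in Cl1, without control replicate 2 (0.27) or by library size only (0.28). ADAM15 (0.51) and ADAM9 (0.39) passed in Cl1, but ADAM15 did not with the local median taken off (0.29) or without either Cl1 library (0.47 and 0.55), nor did ADAM9 by library size only (0.32), without either Cl1 library (0.35 and 0.42) or without control replicate 2 (0.29). ADAM19 (-1.37) and RHBDF2, which encodes iRhom2 (-0.78, local median -0.39), fell in Cl10.

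Of 20 adaptors and members of the RAS-ERK relay, 3 rose and 1 fell in Cl1 (median 0.07), and 5 rose and 2 fell in Cl10 (median 0.11). GAB2, a docking protein, fell in Cl1 (-0.78) and Cl10 (-1.42), from 6.73 and 5.81 CPM in the control to 3.77 and 3.52 CPM in Cl1 and 2.27 and 2.41 CPM in Cl10. SHC1, an adaptor (0.62), and KSR1, a scaffold of the relay (0.54), rose in Cl1, and GAB1 (0.58) and NF1, which switches RAS off (0.52), rose in Cl10. KSR1 did not pass without Cl1 replicate 1 (0.52), nor NF1 without Cl10 replicate 2 (0.50) or with the local median taken off (0.36). Of 14 tested genes of the PI3K-AKT and STAT relay, 4 rose in Cl1 (median 0.25), and 10 rose and 1 fell in Cl10 (median 0.38). PIK3R3, a regulatory subunit of PI3K, had 20.4 and 17.2 CPM in the control, 33.5 and 42.2 CPM in Cl1 and 33 and 31.9 CPM in Cl10, and rose in both (1.01 and 0.79). PIK3R1 also rose in both (0.74 in Cl1 and 0.72 in Cl10), as did STAT5B (0.55 and 0.57) and STAT5A (0.40 and 0.96). STAT5B did not pass without Cl1 replicate 1 (0.54). Between the clones, STAT5A (0.56) and PLCG1, a phospholipase activated by the receptors (0.46), were higher in Cl10.

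Of 20 inhibitors of the receptors and proteins of their degradation, 19 were tested in both clones, of which 3 rose and 6 fell in Cl1 (median -0.20) and 3 rose and 5 fell in Cl10 (median -0.15). LRIG1, a membrane inhibitor of the ERBB receptors, had 25.4 and 21.7 CPM in the control, 11.3 and 11.9 CPM in Cl1 and 16.2 and 17.1 CPM in Cl10, and fell in both (-1.03 and -0.50). ERRFI1, a cytoplasmic inhibitor of EGFR, rose in both (0.40 and 0.72). SH3KBP1, a partner of the ubiquitin ligase CBL, fell in Cl1 (-0.60, but -0.55 and not passed without Cl1 replicate 2), as did CBL (-0.53). SOCS3 (-1.05, local median -0.42) and RNF41, a ubiquitin ligase of ERBB3 (-0.69, local median -0.49), fell in Cl10, RNF41 not with the local median taken off (-0.20). SH3GL2, an endocytic protein, entered the Cl1 comparison only through the Cl1 libraries and was filtered out in Cl10. It had 2 and 0 counts in the control, 25 and 13 in Cl1 and 2 and 5 in Cl10, and was at least 6.35-fold higher in Cl1 against a floor of 3 counts per library.

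Of 16 genes known to respond to ERK, 6 rose and 7 fell in Cl1 (median -0.14), and 7 rose and 6 fell in Cl10 (median 0.09). In either clone 13 of 16 passed, beside 25.1% of all genes tested in Cl1 and 42.5% in Cl10, and those that passed were divided between the directions. PHLDA1, an early response gene, had 219.6 and 190.7 CPM in the control, 66.9 and 69.5 CPM in Cl1 and 92.2 and 91.6 CPM in Cl10, and fell in both (-1.59 and -1.15). DUSP6, a phosphatase of ERK, rose in both (0.85 and 1.35), whereas DUSP4, a related phosphatase, fell in both (-1.42 and -0.55). EGR1, an early response transcription factor, had 9.79 and 9.53 CPM in the control, 24 and 26.2 CPM in Cl1 and 10.2 and 8.25 CPM in Cl10, with 1.38 in Cl1 and -1.43 between Cl10 and Cl1. FOSL1, an AP-1 subunit, fell in Cl1 (-0.62, local median 0.21) and passed as higher in Cl10 (0.31), with 0.93 between the clones (local median 0.14). In Cl10 the local median of FOSL1 was 0.40, above its own value, so no rise beyond its neighbours was seen there. EPHA4, a receptor tyrosine kinase, rose by 0.81 and 1.14.

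**Figure D4:**
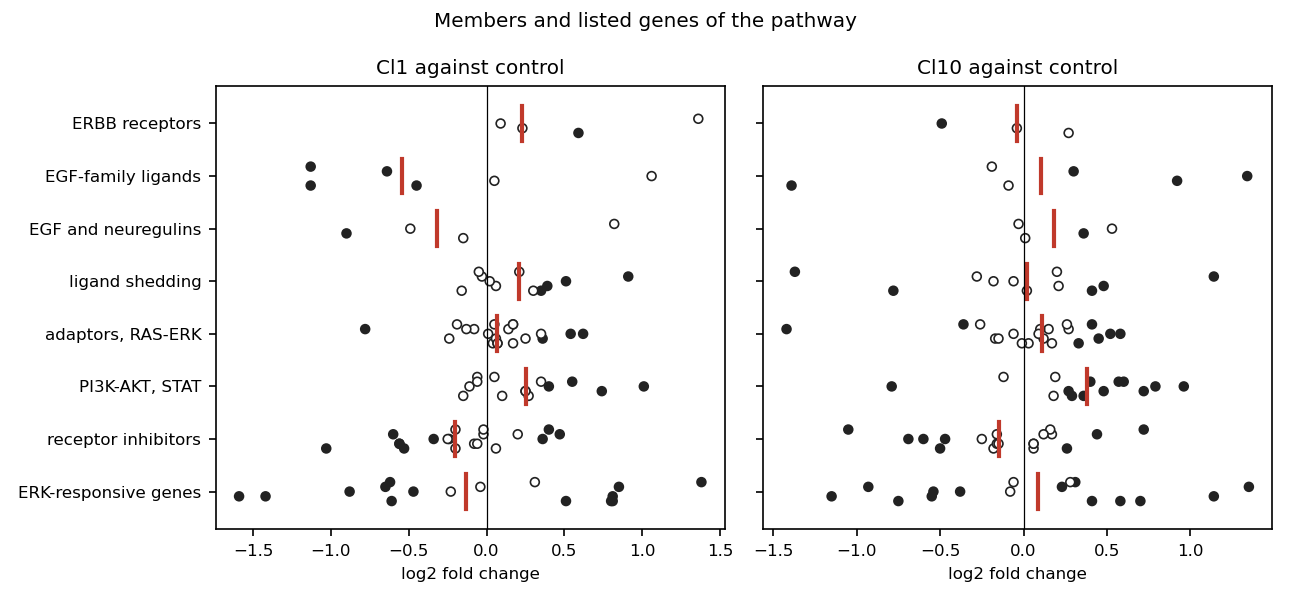
Log2 fold change (x axis) of each tested gene of the 10 members and 6 pathway lists in Cl1 and Cl10 against the control, with filled points for genes that passed edgeR's quasi-likelihood test and red lines at the medians of the genes tested in both clones. The ligands reach -1.13 in Cl1 and -1.39 in Cl10, and the ERK-responsive genes spread to both sides; SH3GL2, at the floor in the control, is not drawn.

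For each called member, the 3 genes nearest in pattern over the 6 libraries were picked by that nearness, so their likeness was not tested. Likeness was taken as the root mean square difference of log2 CPM, centred on each gene's mean over the libraries, among 11654 other genes with a mean of at least 5 CPM for AREG and 11655 for HBEGF and EPGN. The linker histone genes H1F0 and H1FX were nearest to AREG (differences of 0.0478 and 0.086), followed by NKX2-8 (0.103). H1F0 had 3670 and 3550 CPM in the control, 1770 and 1620 CPM in Cl1 and 1500 and 1430 CPM in Cl10. Nearest to HBEGF were ECM1 (0.0708), CA12 (0.0795) and MXD3 (0.0841), and nearest to the scarce EPGN were PCSK6 (0.153), PHLPP2 (0.17) and HR (0.178).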

How the data were processed

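RNA of A253 cells was sequenced in 6 libraries of the DUSP1 experiment, 2 per group. By the study's methods, HISAT2 was the aligner, on hg38, and HTSeq gave the counts per gene, which the authors deposited without normalization; the submitters' processing notes name HISAT2, StringTie and DESeq. The annotation, strand setting and treatment of reads that match several genes are not given in the sources used here, so overlapping or near-identical genes could share reads. The 4 SOX2 libraries were not analysed here. All 125 listed genes were found by name, and coordinates and exon lengths come from GENCODE v44 (hg38).

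Each pair of groups was fitted with edgeR 4.0.16 in R 4.3.3 (filterByExpr with a minimum of 10 counts, TMM, estimateDisp, glmQLFit, glmQLFTest, Benjamini-Hochberg adjustment), and DESeq2 1.42.0 was an alternative. The SE was obtained from the log2 fold change and the F statistic of the test. The fits were tested on simulated data. A local median is that of the 50 nearest tested genes. With it taken off, p-values came from a t-test of the difference with the same SE and edgeR's degrees of freedom. Benjamini-Hochberg adjustment followed. This t-test treats the local median as free of error. Fold bounds use a floor of 3 counts per library, which covers counting error only. Genes named are the 10 members, up to 3 passed genes with the largest change per list and comparison, and the 3 genes nearest in pattern to each called member. One gene that this rule picks is not reported here. ADAM10, ADAM17, CBL, EGF and the neighbours of AREG were added after the values were seen. So were further values of DUSP4, DUSP6, EPHA4, FOSL1, ERRFI1, LRIG1, KRT5, PIK3R1, STAT5A and STAT5B. The members and lists were chosen with earlier results of these data known.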

Additional observations from a re-analysis of the deposited data

Results flagged for a closer look

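For 8 of the 10 genes the effect in Cl10 differed from that in Cl1, by the edgeR quasi-likelihood test of Cl10 against Cl1, which uses no control library and which 49.0% of all 19818 genes tested passed. The log2 difference was 0.94 for EREG, 0.94 for HBEGF, 0.87 for BTC and 0.35 for TGFA, higher in Cl10, and -0.58 for ERBB3, -0.32 for EGFR, -0.26 for ERBB2 and -0.26 for AREG, lower in Cl10. EREG was lower than the control in Cl1 (-0.64) and higher in Cl10 (0.30), whereas AREG was lower in both (-1.13 and -1.39). The medians of the 50 nearest tested genes between the clones were -0.43 for EGFR and -0.39 for ERBB3, and their part in these differences was not tested beyond the subtraction given above. With 2 libraries per group, no library could be tested as an outlier.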

How the results depend on the processing

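The number of the 10 genes that passed was 5 to 6 in Cl1, 4 to 6 in Cl10 and 7 to 8 between the clones under other normalizations, filters, DESeq2, 1 fit over 6 libraries, the replicate block and the local median. With a library left out it ran from 2 to 7 in Cl1, from 2 to 7 in Cl10 and from 6 to 8 between the clones. The low values came without a clone library (2 without Cl1 replicate 1, 3 without Cl1 replicate 2, 3 without Cl10 replicate 1 and 2 without Cl10 replicate 2), fits that leave 1 library in a group and assume that it varies like the others. AREG in both clones, HBEGF in Cl1 and BTC in Cl10 passed under all 12 alternatives, and so did EREG, HBEGF, TGFA, BTC and ERBB3 between the clones.

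The replicate numbers did not pair the libraries (correlations of deviations of -0.0682, -0.0181 and 0.0101 over 20582 genes), and with the replicate block 5 of the 10 genes passed in Cl1 and 5 in Cl10, with 4841 of all genes in place of 5064 in Cl1, 8681 in place of 8439 in Cl10 and 9894 in place of 9706 between the clones. In Cl1 ADAM9 (0.39, edgeR adjusted p = 0.0887) and ADAM10 (0.36, edgeR adjusted p = 0.0911) did not pass with the block, and the shedding list had 2 passed genes in Cl1 in place of 4.

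The sign changed for BTC in Cl1 by library size only (-0.02) and without control replicate 2 (-0.03, range with a library left out up to 0.14), for ERBB2 in Cl10 without control replicate 1 (0.08, down to -0.15), for ERBB3 in Cl10 with the local median taken off (0.00), for EGFR between the clones with the local median taken off (0.12) and for ERBB4 between the clones without Cl10 replicate 1 (0.12, down to -0.43). Only the 2 values with the local median taken off belonged to genes that had passed, and for the rest the cause was not tested. AREG between the clones did not pass by library size only (-0.18), nor EGFR in 1 fit over 6 libraries (-0.32). EPGN in Cl1 passed with no filter (1.05), with at least 10 counts in every library (1.07) and in 1 fit over 6 libraries (1.06), and EGFR in Cl10 passed with no filter (0.25). The number of called members in Cl10 was 1 with DESeq2 and without Cl10 replicate 2, and 4 without control replicate 1. With a library left out, the passed genes of the lists ranged in Cl1 and Cl10 from 1 to 4 and 3 to 9 for shedding, 2 to 6 and 2 to 17 for the RAS-ERK relay, 2 to 8 and 6 to 13 for the PI3K-AKT and STAT relay, 4 to 11 and 4 to 15 for the inhibitors, and 8 to 14 and 9 to 15 for the ERK-responsive genes.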
